A study of Mus musculus with 8 samples.

Results

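The Runx1 peaks of highest fold enrichment at the ends of genes in EML_C1 cells belonged to 10 genes: Dgat2, Plekho2, Hddc2, Uba3, Agrn, Syap1, Nln, Sgtb, Ccdc9 and Paqr3. They were chosen by their Runx1 signal from 21883 protein-coding mouse genes, of which 9908 had a Runx1 peak in both replicates within 1 kb of the same end. For each gene the highest fold enrichment of a Runx1 peak touching such a window was averaged over both replicates, and the 10 genes with the highest mean were kept. Ranked by the authors' −log10 q or −log10 p instead, 4 of them (Plekho2, Agrn, Nln and Sgtb) stayed in the top 10, and Dgat2, Hddc2, Uba3, Syap1, Ccdc9 and Paqr3 left it. Fold enrichment is the authors' own value for a peak, the signal in the immunoprecipitate relative to what their peak caller took as background. Because Runx1 chose the genes, their Runx1 values are given as a description and were not tested. The gene table gives no strand, so an "end" is either boundary of a gene.

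Runx1 is the DNA-binding subunit of core-binding factor, a transcription factor of the blood system that works with its partner Cbfb and recognises a short motif with the core TGTGGT or TGCGGT. It is required for the emergence of haematopoietic stem cells and is often mutated in leukaemia. Ezh2 is the catalytic subunit of Polycomb repressive complex 2, which places the methyl marks on histone H3 at lysine 27 (H3K27me3) that accompany gene silencing. Chromatin immunoprecipitation followed by sequencing (ChIP-seq) maps where such proteins or marks lie along the genome.

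EML_C1 is a mouse haematopoietic progenitor line, here labelled as strain C57BL/6 at passage 4-5 and grown with 200 ng/ml mSCF (stem cell factor). The groups were 3 antibodies, Runx1, Ezh2 and H3K27me3, with 2 replicates each. Chromatin for Runx1 and Ezh2 was fixed with 2 mM DSG for 60 min and 1% formaldehyde for 60 min and shared an input, while H3K27me3 chromatin saw only 1% formaldehyde, for 10 min, and had another input. All cells were of 1 untreated line, the labels do not say that replicates were separate cultures, and differences between replicates may be technical.

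The Runx1 lists held 64059 and 66153 peaks, the Ezh2 lists 178354 and 159007, and the H3K27me3 lists 220455 and 178423, down to p-values of 0.0493 to 0.0499. The depth of the libraries is unknown, since no read totals came with the lists. Of 10 genes of blood progenitors (Kit, Cd34, Ly6a, Spi1, Tal1, Gata2, Flt3, Runx1, Ptprc and Mpo), 9 had Runx1 at an end and none had Ezh2 or H3K27me3. Of 6 genes of other tissues (Alb, Myod1, Neurod1, Krt5, Ins2 and Nkx2-5), none had Runx1, 4 had Ezh2 and 5 had H3K27me3. Of all protein-coding genes 45.3% had Runx1 at an end, 18.4% had Ezh2 and 30.6% had H3K27me3. Some of the marker calls were weak. The mean Runx1 fold of the 9 progenitor genes ran from 1.98 at Ly6a to 64.0 at Runx1. In replicate 2 the H3K27me3 fold of the 5 other genes ran from 2.11 at Ins2 to 2.53 at Neurod1. The difference between these small sets was not tested. ChIP-seq gives no expression, so these calls describe chromatin at the marker genes and not their transcripts.

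The sequence under the summits of 6 members on 5 distinct peaks is shown first, because it is rich in a motif other than that of Runx1. For Dgat2, Syap1, Ccdc9 and Paqr3 no such stretch was read. Each line is the 101 bases centred on the replicate 1 summit of a member whose summit lay in a RefSeq promoter window, 5′ to 3′ on the strand of the gene, from the RefSeq promoter table of GRCm38.p6. The stretches are chr10:31313262-31313362 (plus strand) for Hddc2, chr4:156197524-156197624 (minus) for Agrn, chr9:65580139-65580239 (minus) for Plekho2, chr6:97205692-97205792 (minus) for Uba3 and chr13:104109637-104109737 (minus) for Nln. They end before the RefSeq start site of the named gene. Capitals mark GGGCGG or its reverse complement CCGCCC, the GC box bound by Sp and Klf zinc-finger proteins.
Hddc2: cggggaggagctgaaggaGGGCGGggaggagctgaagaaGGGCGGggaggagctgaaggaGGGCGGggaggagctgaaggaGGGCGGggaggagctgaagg
Agrn: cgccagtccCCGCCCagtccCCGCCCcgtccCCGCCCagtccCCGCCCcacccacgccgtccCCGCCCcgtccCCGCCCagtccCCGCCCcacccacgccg
Plekho2: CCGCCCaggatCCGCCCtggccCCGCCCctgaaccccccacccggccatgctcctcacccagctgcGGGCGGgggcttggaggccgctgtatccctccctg
Uba3: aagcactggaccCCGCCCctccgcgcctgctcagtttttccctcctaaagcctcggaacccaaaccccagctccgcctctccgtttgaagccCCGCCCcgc
Nln: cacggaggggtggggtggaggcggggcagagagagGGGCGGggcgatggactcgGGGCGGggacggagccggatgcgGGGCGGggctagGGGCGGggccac
The stretch of Sgtb is the same as that of Nln on the opposite strand.

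These stretches held 4 GC boxes at Hddc2, 7 at Agrn, 4 at Plekho2, 2 at Uba3 and 4 at Nln, and no RUNX core. Hddc2 and Agrn carried their boxes in tandem repeats of a short unit. The longest run of bases found at more than 1 place in the 300-base promoter window was 62 bases at Hddc2, 46 at Agrn and 15 at Plekho2. In the windows of the other 5 members with an entry the longest repeated run was 13 bases or less. Across all 21262 promoter windows of protein-coding genes the median was 9 bases, and 6.29% of windows had a repeated run of at least 15 bases. Among windows that held a Runx1 summit, the share was 5.53% at a mean fold below 10 and 8.24% at 10 to 50. It was 12.9% at 50 to 100 and 26.6% (17 of 64) at 100 or more. This last class includes windows of members, and repeats were counted after the members' sequences had been seen. Repeated sequence also bears on how reads align, and its part in the Runx1 folds was not tested.

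Dgat2, which encodes an enzyme of the last step of triglyceride synthesis, had the highest fold at a gene end. Its peak reached 276.8 in replicate 1 and 258.9 in replicate 2, a mean of 268 ± 12.7 (SD, n = 2). Plekho2, which encodes a pleckstrin homology domain protein, followed with 261.3 and 213.2 (237 ± 34.0, SD, n = 2). Hddc2, which encodes an HD-domain protein, had 234.1 and 205.8 (220 ± 20.0, SD, n = 2). In each replicate these 3 genes stood above the other 7.

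Below them the folds lay close together. Uba3, the catalytic subunit of the enzyme that activates the ubiquitin-like protein NEDD8, had 207.8 and 161.3 (185 ± 32.9, SD, n = 2). Agrn encodes agrin, a proteoglycan that clusters acetylcholine receptors at the neuromuscular junction, and had 200.1 and 168.8 (184 ± 22.1, SD, n = 2). Syap1, which encodes a synapse-associated protein, had 202.1 and 158.6 (180 ± 30.7, SD, n = 2). Nln encodes the metallopeptidase neurolysin and Sgtb a small glutamine-rich co-chaperone, and these neighbours shared 1 peak with folds of 191.5 and 154.8 (173 ± 26.0, SD, n = 2). The 10 genes therefore rest on 9 distinct peaks. Ccdc9, a coiled-coil protein gene, had 190.3 and 154.7 (172 ± 25.2, SD, n = 2). Paqr3, whose product is a Golgi membrane protein that retains Raf kinase there, had 194.5 and 145.9 (170 ± 34.3, SD, n = 2). The neighbours in this order from Uba3 to Paqr3 differed by less than the spread between replicates.

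The genes just outside the top 10 had nearly the same values. Ripk2, a kinase of innate immune signalling, had 175.3 and 153.4, and Abcb9, a lysosomal peptide transporter, had 180.3 and 148.3, both with a mean of 164. Insl6 followed with 156.8 and 169.9, Marf1 with 180.7 and 143.7, and Esd with 173.8 and 143.3. The plot of Runx1 fold by gene shows that the limit at rank 10 falls within a gradual decline rather than at a gap. By Runx1 fold over the 2 libraries these 5 genes were also the most like the members.

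**Figure D1:**
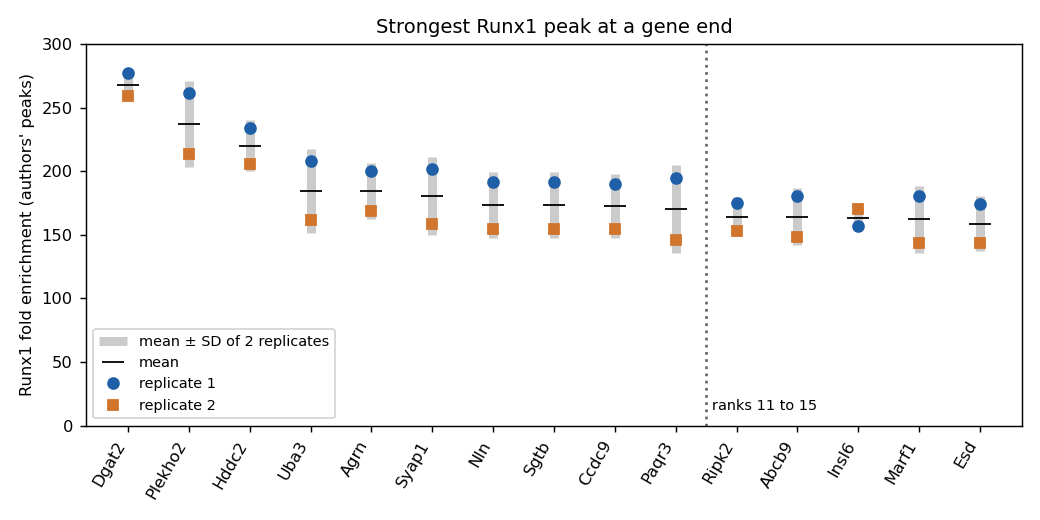
Runx1 fold enrichment (vertical axis, linear, the authors' peak values) of the strongest peak at an end of the 10 members and of the genes ranked 11 to 15 (horizontal axis). Points are the 2 replicates, dashes their mean and grey bars mean ± SD; replicate 1 is above replicate 2 for all 10 members, and Paqr3 at 170 is followed by Ripk2 at 164.

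All 10 members were higher in replicate 1, by a ratio of 1.07 at Dgat2 to 1.33 at Paqr3. Of all 9908 genes with Runx1 at an end 59.8% were higher in replicate 1, and the median ratio was 1.05. The share higher in replicate 1 was 97.8% at ranks 11 to 100, 88.2% at ranks 101 to 1000 and 56.5% beyond. The tilt towards replicate 1 thus ran through the strong peaks of the series and was not limited to these genes. Over whole lists the order was the opposite, with a median peak fold of 3.11 in replicate 1 and 3.60 in replicate 2.

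The members were not the strongest Runx1 peaks in the genome. Their ranks among all peaks ran from 4 (Dgat2) to 16 (Ccdc9) in replicate 1 and from 2 (Dgat2) to 23 (Paqr3) in replicate 2. Of the 20 highest peaks 11 in replicate 1 and 10 in replicate 2 touched a window at a gene end. The highest peak in both lists lay over 1 kb from every gene end, inside Ak5 and 16285 bp from the nearest end, that of Zzz3, with folds of 335.1 and 336.0.

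The strongest summit lay just outside the gene in 8 of 10 members, and in the same 8 it lay within 120 bp of the end. Of all genes with Runx1 at an end 47.5% had the summit outside the gene in both replicates and 48.1% had it within 120 bp. The genes at ranks 11 to 100 were close to the members, with 78.9% outside and 66.7% within 120 bp, and those at ranks 101 to 1000 had 65.3% and 57.7%. The summit stood 14 and 16 bp outside Nln and 36 and 34 bp outside Sgtb, in the gap between these genes, in replicates 1 and 2. It stood 18 and 17 bp outside Hddc2, 41 and 50 bp outside Agrn and 56 and 61 bp outside Syap1. Uba3 (95 and 101 bp), Paqr3 (97 and 99 bp) and Plekho2 (102 and 111 bp) had it farther out. These 8 distances are small against the 911 to 1872 bp over which the members' peaks extended.

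Dgat2 and Ccdc9 were the exceptions. At Dgat2 (chr7:99153663-99182713) the summit lay 1589 and 1582 bp inside the gene, and only the edge of the peak reached the window. Its other end had a separate Runx1 peak of 13.7 and 13.9 (13.8 ± 0.147, SD, n = 2) with the summit a mean of 16 bp outside the gene. With a window of 500 bp, or with the summit required inside the window, that weaker peak would be the value of Dgat2, which would then leave the 10. At Ccdc9 (chr7:16272013-16286807) the summit lay 520 and 516 bp inside the gene and 270 and 274 bp upstream of a RefSeq start at position 16286017.

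Replicates placed each summit almost identically. The gap between replicate summits was 1 bp at Hddc2 to 9 bp at Plekho2 and Agrn, with a median of 4.5 bp against 16 bp over all genes with Runx1 at an end. The genes at ranks 11 to 100 had the same median gap of 4.5 bp. The members' peaks had a median width of 1272.5 bp against 624.25 bp over all such genes and 1168.75 bp at ranks 11 to 100. The map of peak extents shows summits near 0 for all members but Dgat2 and Ccdc9.

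**Figure D2:**
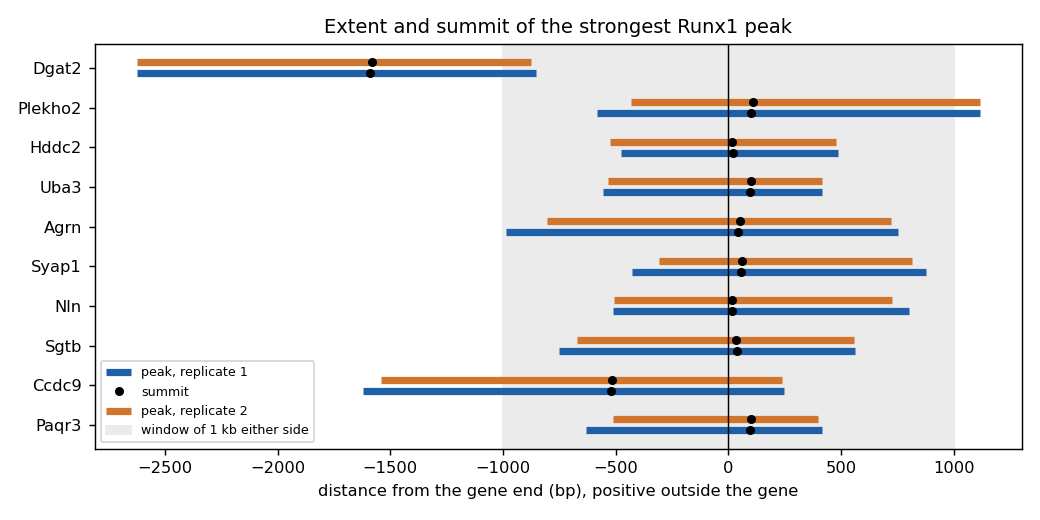
Extent (bars) and summit (points) of the strongest Runx1 peak of each member in replicates 1 and 2, against distance from the gene end in bp (positive outside the gene); the grey band is the window of 1 kb either side. Summits lie 14 to 111 bp outside the end for 8 members, about 520 bp inside Ccdc9 and about 1585.5 bp inside Dgat2.

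RefSeq promoter windows, 250 bases before to 50 after a start site, were matched by symbol for 8 members, in 12 windows. No window was matched for Dgat2 and Syap1. The summits of both replicates lay in a window of Plekho2, Hddc2, Uba3, Agrn, Nln and Sgtb, between 52 and 111 bp upstream of the start site. GGGCGG was present in a window of 8 of these 8 genes, against 49.2% of the 17491 protein-coding genes with a window. Ccdc9 had it only in the windows of the starts at 16286017 and 16284659, neither of which held the summit. Its windows of the starts at 16286780 and 16286795 had 0 copies. The windows that held the summit had 7 copies at Plekho2, 7 at Hddc2, 4 at Uba3, 12 at Agrn, 7 at Nln and 7 at Sgtb, where the last 2 windows overlap. They were also GC-rich, from 64.3% G and C at Hddc2 to 83.3% at Agrn, against a median of 56.3% over all windows. GGGCGG was searched on both strands with overlapping matches counted, and it was added after the members' sequences had been seen.

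The RUNX core, TGTGGT or TGCGGT on either strand, was found in a window of 2 of the 8 genes, against 24.4% of all genes with a window. Agrn had TGCGGT at bases 243 to 248 of its window, counted from the 5′ end, centred 80.5 bases from the replicate 1 summit. Ccdc9 had TGCGGT in the window of the start at 16286017, centred 295.5 bases from the summit. TGTGGT was in a window of 0 of the 8, against 17.2% of all genes. These matches are descriptions of letters and not of binding, and a missing match says only that the letters are not in the window.

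Motifs of 5 other factor families were searched on both strands as well. The ETS motif CCGGAAG was in windows of Plekho2, Ccdc9 and Sgtb, 3 of the 8 genes, and in a window of 12.9% of all genes with one. The matches of Ccdc9 were in windows that did not hold its summit. An E-box written as CAGCTG was in the window of Plekho2 and in a window of 17.4% of all genes. The cyclic AMP response element, searched for as TGACGT, was in the window of Paqr3 and in a window of 9.60% of all genes. The GATA motif AGATAA, in a window of 11.2% of all genes, matched no window of a member. The AP-1 motif TGANTCA matched none either, and was in a window of 8.12% of all genes.

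The same motif counts were taken across all promoter windows by Runx1 fold, to place the members. GGGCGG was in 34.5% of 15620 windows without a Runx1 summit of both replicates. It was in 69.8% of windows with a mean fold below 10, 89.2% at 10 to 50, 97.7% at 50 to 100 and 100% (64 of 64) at 100 or more. The RUNX core was in 20.3%, 25.9%, 24.3%, 22.4% and 12.5% (8 of 64) of the same classes. The ETS motif was in 6.87%, 24.5%, 25.4%, 20.5% and 12.5% of them. GC content rose over these classes too, from a median of 53% to 68.7%. Within windows of 60 to 80% GC, GGGCGG was in 75.7% without a summit, 80.9% at a fold below 10 and 100% (57 of 57) at 100 or more. In the same order the RUNX core was in 16.8%, 21.7% and 12.3% of these windows. The plot of motif share by Runx1 fold shows the GC box climbing from class to class, while the RUNX core is highest below a fold of 10 and lowest at 100 or more. Windows of neighbouring starts overlap and share peaks, and the part of GC content was not tested beyond that band.

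**Figure D3:**
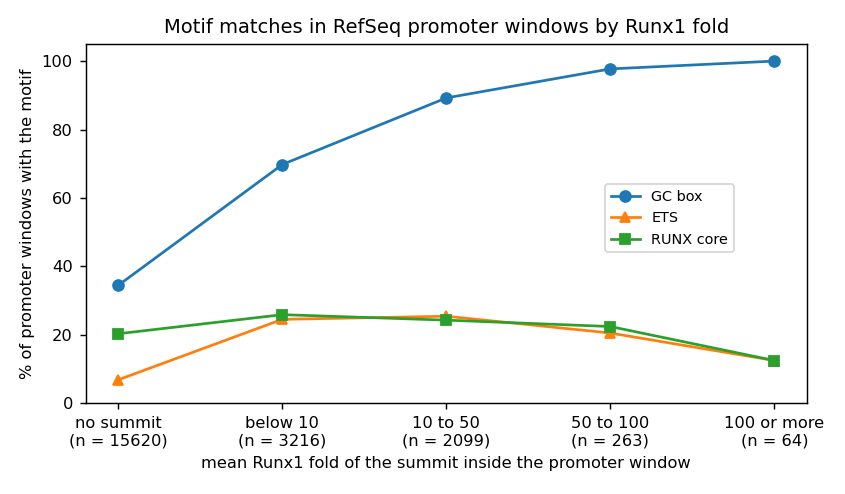
Share of RefSeq promoter windows (vertical axis, %) with the GC box GGGCGG, the ETS motif CCGGAAG or the RUNX core (TGTGGT or TGCGGT), by the mean Runx1 fold of the summit in the window (horizontal axis, with the number of windows). The GC box goes from 34.5% to 100% and the RUNX core from 20.3% to 12.5%.

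Close to the summit the picture was similar. Within 50 bases either side of the replicate 1 summit, where that stretch lay before the start site, GGGCGG was in 44.3% of 1441 windows below a fold of 10 and in 94% (47 of 50) at 100 or more. The RUNX core was in 12.6% and in 4% (2 of 50). The 6 members in that last class, Plekho2, Hddc2, Uba3, Agrn, Nln and Sgtb, all had the GC box in this stretch and none had the RUNX core.

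Ezh2 was at an end of 5 of 10 members, Dgat2, Agrn, Paqr3, Nln and Sgtb, against 18.4% of all genes and 11.6% of genes with Runx1 at an end. At Agrn the Ezh2 fold was 6.34 in replicate 1 and 4.21 in replicate 2 (5.28 ± 1.50, SD, n = 2), with q-values of 5.30e-61 and 8.17e-24. At the end shared by Nln and Sgtb it was 4.48 and 3.26 (3.87 ± 0.864, SD, n = 2). Dgat2 had 3.78 and 2.95 (3.36 ± 0.588, SD, n = 2) and Paqr3 2.62 and 2.45 (2.53 ± 0.125, SD, n = 2). At Paqr3 the replicates had separate Ezh2 peaks that did not overlap, at 97111257-97111567 in replicate 1 and 97110704-97110906 in replicate 2. The replicate 2 peak had a q of 0.135, so Paqr3 is the least certain of these calls. At a q of 0.01 in both replicates 4 of 10 members had Ezh2 at an end, against 8.07% of all genes, and at 1e-05 the same number did, against 4.58%. Ezh2 and Runx1 folds are not on 1 scale, so these values are not set against the Runx1 folds. By fold in the Ezh2 lists of replicates 1 and 2, the Agrn peak ranked 757 and 2287. The peak of Nln and Sgtb ranked 2769 and 11911, that of Dgat2 7358 and 28430 and the separate peaks of Paqr3 65349 and 76585.

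Ezh2 lay at the same end as the strongest Runx1 peak in 4 of 10 members, at 3 distinct loci, against 9.46% of genes with Runx1 at an end. At Agrn the Ezh2 and Runx1 peaks overlapped by 1009 and 800 bp, with summits 398 and 483 bp apart. At Nln and Sgtb they overlapped by 854 and 654 bp, with summits 223 and 221 bp apart. At Paqr3 they touched only in replicate 1. An Ezh2 peak thus touched the strongest Runx1 peak in both replicates in 3 of 10 members, against 7.42%. These were Agrn, Nln and Sgtb, and the locus shared by Nln and Sgtb is counted for both. Ezh2 and Runx1 shared an input and a fixation, whose part in this overlap was not tested.

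H3K27me3 was at an end of 4 of 10 members, Dgat2, Agrn, Nln and Sgtb, against 30.6% of all genes and 11.5% of genes with Runx1 at an end. It was at the end of the strongest Runx1 peak in 3 of 10, Agrn, Nln and Sgtb, against 7.61%, and touched that peak in the same 3, against 4.73%. Nln and Sgtb share 1 Runx1 peak and 1 H3K27me3 peak per replicate, so that locus is counted for both genes. At Agrn the fold was 2.66 and 1.99 (2.33 ± 0.475, SD, n = 2), and at Nln and Sgtb 2.82 and 2.26 (2.54 ± 0.396, SD, n = 2). Dgat2 had 2.46 and 2.33 (2.40 ± 0.0909, SD, n = 2). The replicate 2 peaks were weak, with q-values of 0.0729 at Agrn, 0.0465 at Nln and Sgtb and 0.0943 at Dgat2. At a q of 0.01 in both replicates 0 of 10 members had H3K27me3 at an end, against 3.03% of all genes, and at 1e-05 again 0, against 0.425%.

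By rank of Runx1 fold, Ezh2 was at the same end in 4 of 10 members, 11 of 90 genes at ranks 11 to 100, 91 of 900 at ranks 101 to 1000 and 831 of 8908 beyond. H3K27me3 was there in 3, 8, 65 and 678 of them. The bar chart by rank shows near-equal shares in the 3 lower classes. With 10 genes and 9 distinct peaks, the share of the members moves by 10 points with each gene, and the difference from lower ranks was not tested.

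**Figure D4:**
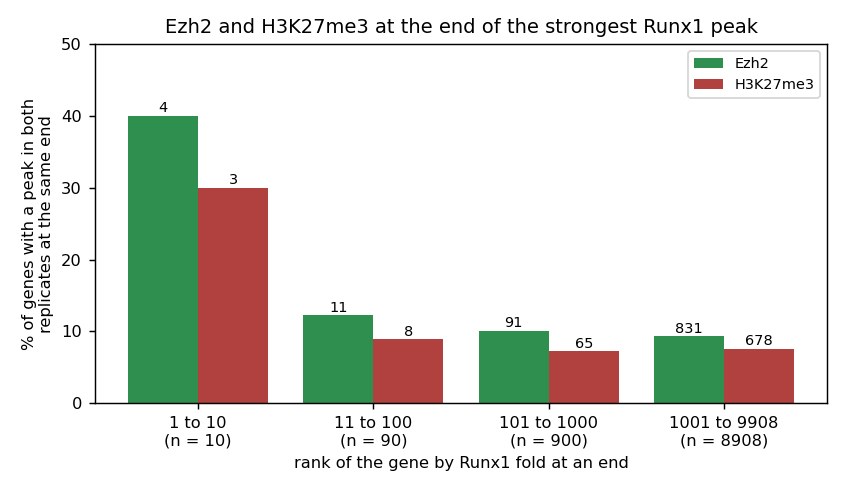
Share of genes (vertical axis, %, from 0) with an Ezh2 or H3K27me3 peak in both replicates at the end of their strongest Runx1 peak, by rank of Runx1 fold (horizontal axis, with the number of genes); numbers above bars are genes. Ezh2 is at 40% for the members and at 12.2%, 10.1% and 9.33% in the lower classes.

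Over the gene span plus 20 kb on either side, Ezh2 was present in both replicates at 6 of 10 members and H3K27me3 at 7, against 56.9% and 68.7% of all genes. Runx1 was there in 74.4% of all genes and, by the choice of the members, in 10 of 10. The H3K27me3 count rested on the flank and on weak peaks: it was 3 within the gene alone, 4 with 5 kb and 0 at a q of 0.01. Plekho2, Uba3 and Syap1 had no peak of either in any replicate, although the lists hold many weak peaks. At the opposite pole was Dgat2, where Ezh2 had 20 and 16 peaks and H3K27me3 covered 60.4% and 42.8% of the stretch (51.6 ± 12.4, SD, n = 2). None of these H3K27me3 peaks had a q of 0.01 or less in either replicate. The median coverage over all genes was 4.39%. The H3K27me3 peak at its weaker Runx1 end was 31406 bp wide in replicate 1 and 12177 bp in replicate 2. Peaks of Ezh2 and H3K27me3 ran from inside the gene past that end. The end with the strongest Runx1 peak had none within 1 kb, but the Runx1 summit lay farther inside the gene. Just past that Runx1 peak, which ended at 99156288 and 99156285 in replicates 1 and 2, H3K27me3 peaks began at 99156392 and 99156655. H3K27me3 covered 20.5% and 13.2% at Agrn and 16.6% and 6.74% at Hddc2, and in both replicates less than 6% at the others.

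**Figure D5:**
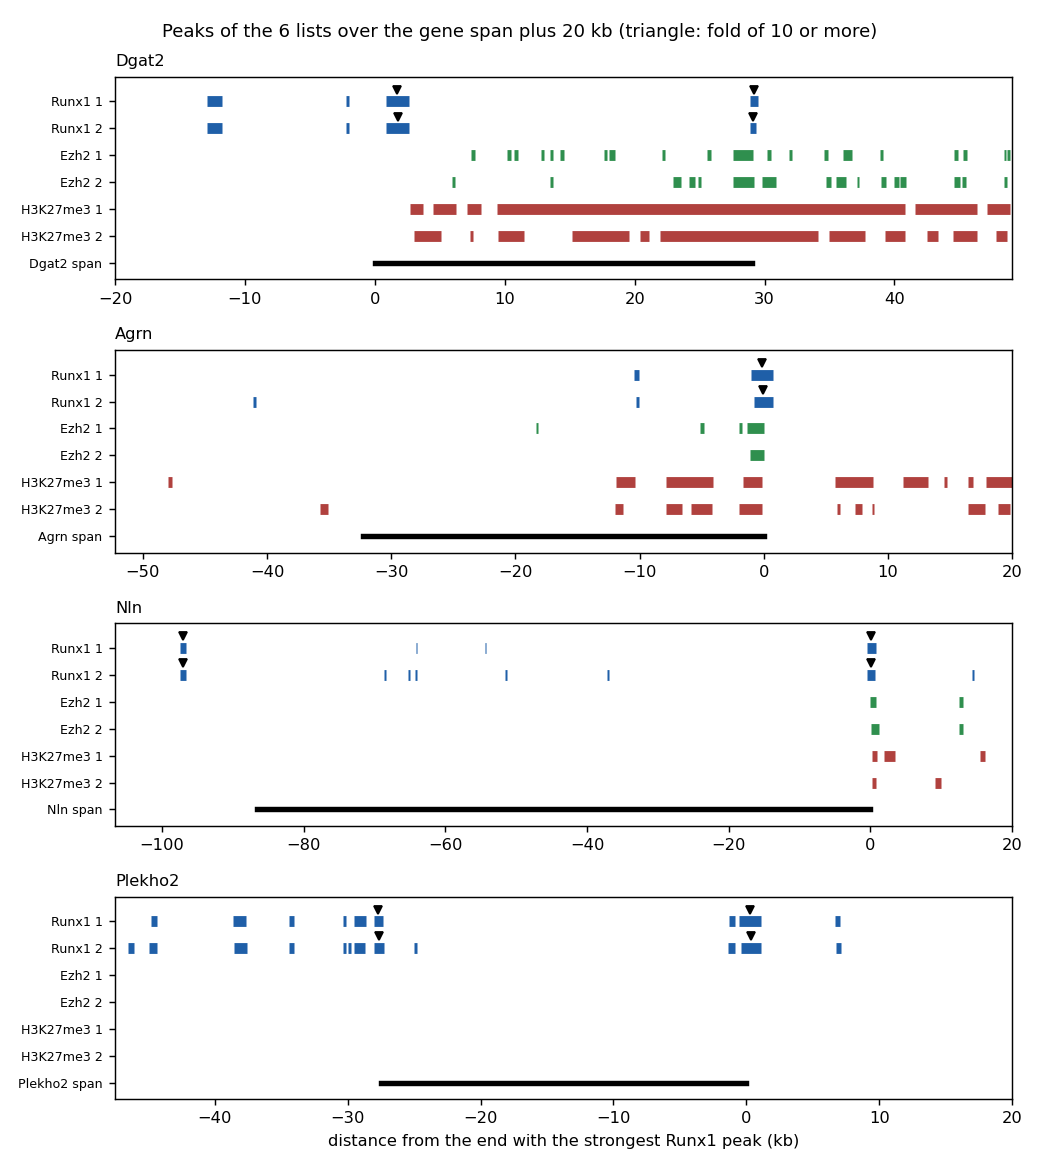
Peaks of the 3 antibodies in replicates 1 and 2 over Dgat2, Agrn, Nln and Plekho2 and 20 kb either side, against distance in kb from the end with the strongest Runx1 peak (0); black lines are gene spans and triangles mark peaks with a fold of 10 or more. Peaks of all 3 antibodies reach to within 1 kb of 0 in Agrn and Nln. In Dgat2 those of Ezh2 and H3K27me3 run from inside the gene past the far end, and Plekho2 has Runx1 peaks only.

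Every member had at least 1 further Runx1 region of both replicates in its span plus 20 kb, as did 88% of genes with Runx1 at an end. The strongest further region lay in Ccdc9, 1353 bp from an end, with 35.8 and 36.9 (36.3 ± 0.795, SD, n = 2). Ccdc9 had 7 further regions, 4 of them with a mean fold of 10 or more. Plekho2 had 8, the strongest at its other end with 15.8 and 19.8 (17.8 ± 2.89, SD, n = 2). Runx1 was thus at both ends of Dgat2, Plekho2 and Ccdc9, 3 of 10, against 12.1%.

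The other members had weaker further regions. Nln had 1 of 13.4 ± 4.26 (SD, n = 2), 10418 bp from its nearer end, and Uba3 had 5, up to 9.46 ± 0.221 (SD, n = 2). The nearest further region to the strongest peak was 1171 bp away at Plekho2, 3699.5 bp at Dgat2, 9036 bp at Ccdc9, 10190.5 bp at Agrn, 13016.5 bp at Syap1 and 16114.5 bp at Uba3. It was 17138.5 bp away at Hddc2, 18955 bp at Paqr3, 30163 bp at Sgtb and 64157 bp at Nln, within the region considered for each gene. The strongest peak was thus the single high peak of its neighbourhood in Hddc2, Uba3, Agrn, Syap1, Paqr3 and Sgtb, where no further region reached a fold of 10. Only Nln and Sgtb, 2 of 10, shared their peak with another protein-coding gene end within 1 kb, against 27.6%.

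The relatives and partners of the members, 58 other genes in 7 lists, are given beside the shares over all genes, which were 45.3% for Runx1, 18.4% for Ezh2 and 30.6% for H3K27me3 at an end. Of the 58 genes 35 had Runx1, 10 had Ezh2 and 15 had H3K27me3, the last 2 near the shares over all genes. Their median Runx1 fold was 7.41, and that of all genes with Runx1 at an end was 7.50. All lie below the members by the way these were chosen. The lists are small, and their counts below are read against the same shares.

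Among 15 other genes of triglyceride synthesis 8 had Runx1 (against 45.3% of all genes), 5 Ezh2 (18.4%) and 8 H3K27me3 (30.6%). Agpat2, which makes phosphatidic acid, was highest with 46.7 ± 6.21 (SD, n = 2), and Dgat1, which catalyses the same reaction as Dgat2, had 3.05 ± 0.683 (SD, n = 2). Ezh2 and H3K27me3 were both at an end of Gpam, Gpat3, Agpat3, Lpin3 and Mogat2. Gpat3 had an Ezh2 fold of 9.88 and 6.19, above that of Dgat2 in both replicates.

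Among 17 other genes of neddylation, the attachment of NEDD8 to cullins that Uba3 starts, 12 had Runx1, 0 Ezh2 and 1 H3K27me3. Rbx1, the RING subunit of cullin ligases, was highest with 73.3 ± 6.70 (SD, n = 2), and Cul3, a cullin, had 68.4 ± 8.89 (SD, n = 2). Nae1, the partner subunit of Uba3, had 7.28 ± 0.616 (SD, n = 2). The 7 other genes of the small glutamine-rich co-chaperone list all had Runx1 and none had Ezh2 or H3K27me3, with Get4 highest at 20.6 ± 2.99 (SD, n = 2). Sgta, the paralog of Sgtb, had 19.9 ± 0.397 (SD, n = 2).

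In the receptor family of Paqr3, 5 of 10 other genes had Runx1, 3 Ezh2 and 4 H3K27me3. Mmd was highest with 49.5 ± 4.97 (SD, n = 2), and Paqr4, Paqr5 and Mmd2 had both Ezh2 and H3K27me3. Of the 4 other genes of the agrin pathway 1 had Runx1, Dok7 with 2.32 ± 0.0220 (SD, n = 2), and Lrp4, the agrin receptor, had both Ezh2 and H3K27me3. Of 2 relatives of Nln, Thop1 had Runx1 with 4.68 ± 0.777 (SD, n = 2) and Mipep had none. Of 3 further paralogs Plekho1 had Runx1 with 3.09 ± 0.776 (SD, n = 2), Ccdc9b had both Ezh2 and H3K27me3, and Hddc3 had none of the 3.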

How the data were processed

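ChIP-seq peak lists of 6 antibody libraries were used, 1 list per library; the 2 inputs were not analysed here. Per the submitters' processing notes the tools were Bowtie2 2.2.1, Picard, SAMtools and MACS2 2.0.10 with mm10; what each did, and with which settings, is not stated there. The deposited fold enrichment is a linear ratio per peak and is the authors' value. Each deposited p-value and q-value was given as its −log10. The deposited score, 10 times −log10 of p or q, was not used. H3K27me3 came as broad peaks without summits, so its folds are not comparable with the others.

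Genes came from RefSeq on GRCm38.p6 (coordinates of mm10, counted from 1; chromosomes 1 to 19, X and Y). A call needed a peak in both replicates over the same window of 1 kb either side of an end, by 1 bp or more. A further Runx1 region is a merged region with a peak of both replicates. Values are means ± SD over 2 replicates; Python 3.11.15, numpy 2.4.6 and pandas 2.3.3 were used. Calls were tested on simulated data. No hypothesis test was run: Runx1 values chose the genes, folds exist only where a peak was called, and folds of different antibodies are not on 1 scale. Named were all members, genes sharing their peak, ranks 11 to 15, the nearest further region, the highest relative of each list and any with Ezh2 and H3K27me3, and the highest peak far from gene ends; other names were chosen after their values were seen. Members and lists were chosen with earlier results of these data known, and GGGCGG, GC content, repeats and summit stretches were added after the sequences were seen. Camlg was matched as Caml. Other windows, flanks, q limits, overlap rules and single replicates were tried.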

Additional observations from a re-analysis of the deposited data

How the results depend on the processing

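Ranked by the deposited −log10 q, 4 of the 10 members (Plekho2, Agrn, Nln and Sgtb) stayed among the top 10, and 4 did by −log10 p. With other windows, the summit inside the window or the lower of the replicates 9 stayed, and without replicate 1 or 2 it was 9 to 10. The Runx1 fold of Dgat2 was 13.8 with a window of 500 bp and with the summit inside the window. H3K27me3 at an end fell from 4 members to 0 at a q of 0.01 and 0 at 1e-05. The share of all genes fell from 30.6% to 3.03% and 0.425%. Within the span, H3K27me3 was at 3 members with no flank and 4 with 5 kb, and at 0 at either q limit. Without a replicate the counts ranged from 5 to 5 for Ezh2 and 4 to 4 for H3K27me3 at an end, 6 to 7 and 7 to 7 in the span, and 10 to 10 for further Runx1 regions, with a median summit distance of 75.5 to 80 bp. The RUNX core was in 0 members with TGTGGT alone. Ezh2 at an end was called in 4 or 5 members under every setting tried.

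No paired analysis was possible because the results come from no test: they are counts and folds of peaks called in each library. Depth is unknown, and the lists include weak peaks, so calls with folds near 2 are the least firm. Read alignability and GC content at the repeated sequences were not tested. Strand and start sites were used for the promoter windows and their sequences but not for gene ends. Transcript levels and other measures of expression were not used here.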
